A study of Mus musculus with 4 samples.

Results

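The annexins are a family of proteins that bind acidic phospholipids of cell membranes when calcium is present. All share a conserved core that makes this contact, and they differ in the tail at the amino end, which binds partner proteins. They take part in vesicle traffic, in the link between the membrane and the actin skeleton and in the closing of membrane wounds, and fibroblasts are known as a rich source of several of them. The genes described here are Anxa1, Anxa2, Anxa3, Anxa4, Anxa5, Anxa6, Anxa7, Anxa8 and Anxa11, that is 9 of the annexin genes of the mouse. They were chosen by name, as all probe sets that the platform annotation gives to these genes, which are 20 of the 45101 probe sets in the table. Of these 20, 19 are annotated to a single gene and cover 8 of the 9 genes, out of 18193 genes with such a probe set.

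Total RNA was hybridised to Affymetrix mouse arrays of 1 colour, with 1 array for each of 4 cell populations. The populations were neural stem cells induced with 14 factors (iNSC_14F) or with 13 (iNSC_13F), primary-derived neural stem cells (NSC) and mouse embryonic fibroblasts (MEF). Induction here means that factors put into cells of a different lineage convert them to cells like neural stem cells. According to the series title the lineages converted were adult liver cells and B lymphocytes, but the labels do not say which sample came from which. They give no factor names, number of clones, strain, age or genotype. Both induced populations and the NSC were cultured in N2 medium that held EGF, bFGF and laminin, while no culture medium is stated for the fibroblasts. A source label naming embryonic stem cells stands on all 4 samples and goes against their cell type labels.

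With 1 array a group there is no replicate error, so every difference below is a difference between arrays, with no test, SD or p-value. Values are signals, linear array intensities summarised by MAS5. A signal of 103.91 served as the floor, taken from 86 probe sets of sensory receptor genes, and where 1 of a pair of arrays did not exceed it, the fold was computed against the floor and is given as "at least". Among the genes above the floor on both induced arrays, 95% differed by less than 2.32-fold between them. This serves as a yardstick and includes any difference between the induced populations. Differences from NSC or MEF spread more widely over all genes, so one past the yardstick need not be unusual there. The NSC array stood apart, with hybridization controls 1.82-fold, 2.11-fold and 1.83-fold higher on the iNSC_14F, iNSC_13F and MEF arrays than on it. Neural stem cell markers fitted the labels, with 7, 7, 8 and 2 of 8 above the floor on the iNSC_14F, iNSC_13F, NSC and MEF arrays. Fibroblast markers were above it for 2, 3, 0 and 7 of 8, and their summed signal was 422, 903, 199.9 and 136903 in the same order. All 5 hepatocyte markers and all 5 B lymphocyte markers with a probe set were below the floor on every array. Of the markers of microglia, endothelium and astrocytes, at most 2 a list were above it on any array.

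Anxa1 and Anxa2 lay in opposite order on the induced arrays, both beyond the yardstick. Anxa5 was 1.6-fold higher in iNSC_14F than in iNSC_13F, within the yardstick. The sequences upstream of these 3 annexin genes are shown. They are the 250 bases before the transcript start, from RefSeq on build GRCm38.p6, 5′ to 3′ on the strand of the gene. Of the 9 genes, 7 had an entry, with 9 windows in all. Capitals mark matches to 6 motifs searched on both strands, which are AP-1 (TGANTCA), TEAD (GGAATG), the GC box (GGGCGG), the TATA box (TATAAA), the CCAAT box (CCAAT) and the E-box (CACGTG).
Anxa1 (chr19:20390672-20390921, minus strand): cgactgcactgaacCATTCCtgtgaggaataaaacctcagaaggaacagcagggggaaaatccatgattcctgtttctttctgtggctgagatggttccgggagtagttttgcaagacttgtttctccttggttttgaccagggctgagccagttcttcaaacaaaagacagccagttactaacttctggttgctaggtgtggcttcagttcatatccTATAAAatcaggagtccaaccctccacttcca
Anxa2 (chr9:69453433-69453682, plus strand): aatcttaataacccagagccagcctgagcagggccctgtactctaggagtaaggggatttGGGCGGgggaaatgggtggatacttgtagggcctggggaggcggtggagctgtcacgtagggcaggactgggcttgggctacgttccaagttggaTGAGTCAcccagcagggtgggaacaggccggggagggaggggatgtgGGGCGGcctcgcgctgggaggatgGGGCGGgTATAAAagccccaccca
Anxa5 (chr3:36475888-36476137, minus strand): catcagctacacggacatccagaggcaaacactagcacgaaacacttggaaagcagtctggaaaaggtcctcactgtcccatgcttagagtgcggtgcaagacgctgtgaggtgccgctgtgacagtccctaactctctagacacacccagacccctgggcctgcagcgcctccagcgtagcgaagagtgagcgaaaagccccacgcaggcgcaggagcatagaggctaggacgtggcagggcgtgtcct

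The 3 windows differ in what they hold. That of Anxa1 has a TATA box 32 bases before the start and a TEAD match, on the other strand, 236 bases before it. That of Anxa2 has a TATA box at 17 bases, an AP-1 match at 95 bases, and GC boxes at 24, 48 and 190 bases. That of Anxa5 has no match to these letters. Among 32851 promoter windows of this length, 12.4% hold the TATA box, 12.6% the TEAD letters, 6.75% the AP-1 letters, 32.7% the GC box, 33.9% the CCAAT box and 6.02% the E-box. Of the 9 annexin windows, 2 hold the TATA box and 1 each the AP-1 letters, the TEAD letters and the E-box. The GC box is in 4 and the CCAAT box in 0, and no match overlaps another motif. The GC box windows belong to Anxa2, Anxa7 and Anxa11, and the 2 windows of Anxa7 overlap and share 1 GC box. A match describes the sequence and shows no binding.

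The NSC array was set against the MEF array to ask how neural stem cells differ from fibroblasts. All 8 annexins were lower in NSC, and 7 of 8 were at least 4-fold lower, where 7.21% of 11492 measured genes were. Of the annexins 0 were 4-fold higher, beside 6.09% of genes, 8 were at least 2-fold lower, beside 17.5%, and 0 were 2-fold higher, beside 19.9%. Their median log2 difference was -4.81, against -0.01 over all measured genes. The differences ran from -1.72 for Anxa6 to -6.96 for Anxa1. In bulk RNA, fewer cells that express a gene and less RNA of it per cell cannot be told apart. The fibroblast markers moved in the same direction as the annexins, as given above, and their part in these differences was not tested.

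Both induced arrays were also compared with MEF, an array that all 3 of these comparisons share. Again 7 of 8 annexins were at least 4-fold lower on each, beside 8.03% of 11572 genes for iNSC_14F and 9.27% of 11770 genes for iNSC_13F. None was 4-fold higher, beside 4.49% of genes for iNSC_14F and 3.66% for iNSC_13F. At 2-fold, 8 were lower and 0 higher in iNSC_14F, beside 19.0% and 18.0% of genes, and 7 were lower and 0 higher in iNSC_13F, beside 20.9% and 15.6%. The median log2 differences of the annexins were -3.77 in iNSC_14F and -4.76 in iNSC_13F, against 0.10 and 0.09 over all measured genes. In iNSC_14F the smallest differences were those of Anxa6, at -1.60, and Anxa2, at -2.87. In iNSC_13F Anxa6 stood apart at -0.48, while the other 7 lay at -3.49 or below. With the median of all probe sets of a gene, Anxa2 was -0.79, -1.11 and -1.79 in iNSC_14F, iNSC_13F and NSC, which is under 4-fold. Why its probe sets differ was not tested.

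**Figure D1:**
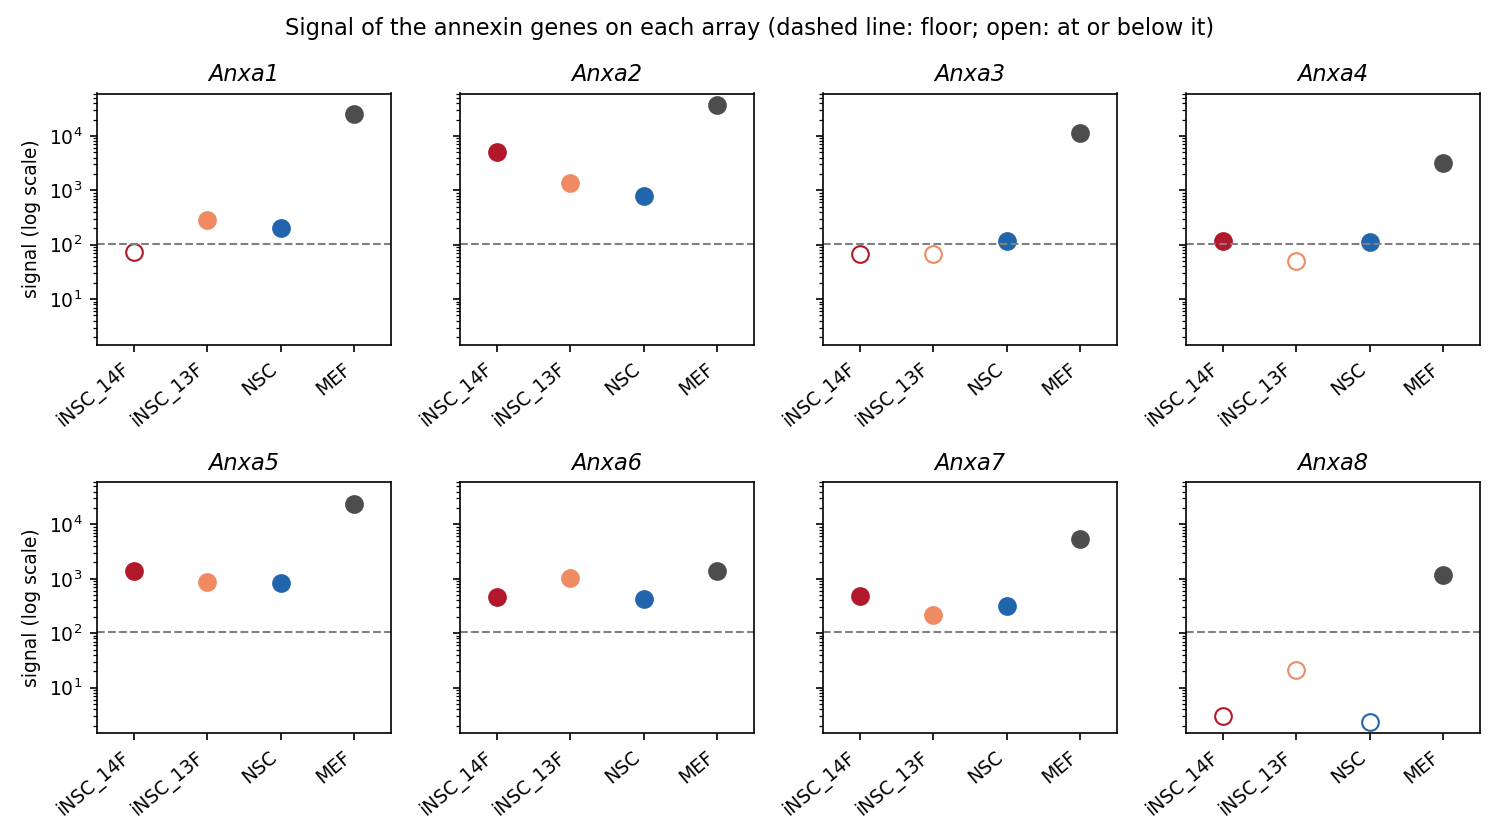
Signal (log axis) of the brightest probe set of 8 annexin genes on the 4 arrays, 1 panel a gene and 1 point an array, with the floor of 103.91 as a dashed line and open circles at or below it. The MEF point is the highest in every panel, by 247-fold at least over iNSC_14F for Anxa1 but by only 1.39-fold over iNSC_13F for Anxa6.

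Anxa1 and Anxa2 encode annexins whose tails bind S100 proteins. Anxa1, a product of glucocorticoid-treated cells known for limiting inflammation, had signals of 73.1 in iNSC_14F, 285 in iNSC_13F, 207 in NSC and 25679.6 in MEF. It was below the floor in iNSC_14F and above it on the other arrays. Relative to MEF it was therefore lower by at least 247-fold in iNSC_14F, by 90.2-fold in iNSC_13F and by 124-fold in NSC. Between the induced arrays Anxa1 was at least 2.74-fold lower in iNSC_14F than in iNSC_13F, beyond the yardstick, and at least 1.56-fold lower with the floor at the 99th percentile. Its difference between iNSC_13F and NSC, 1.38-fold higher in iNSC_13F, was within it. The other probe set of Anxa1 was below the floor on every array.

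Anxa2 forms a complex with S100A10 that bridges membranes and holds plasminogen and its activator at the cell surface. Its signals were 5090.1 in iNSC_14F, 1335 in iNSC_13F, 784 in NSC and 37144 in MEF. The iNSC_14F array was thus the nearest to MEF, at 13.7% of the MEF signal, against 3.60% for iNSC_13F and 2.11% for NSC. Anxa2 was 6.49-fold higher in iNSC_14F than in NSC, and at least 47 of 10812 genes had a larger rise, since folds of genes below the floor in NSC are bounds. It was also 3.81-fold higher in iNSC_14F than in iNSC_13F, where at least 63 of 10809 genes had a larger rise. The 1.70-fold difference between iNSC_13F and NSC was within the yardstick. After scaling by the hybridization controls, the log2 difference between iNSC_14F and NSC was 1.84 in place of 2.70, which is under 4-fold.

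A further probe set of Anxa2, with the suffix _x_at that marks probes shared with other transcripts, had signals of 207 in iNSC_14F, 166 in iNSC_13F, 78.8 in NSC and 358 in MEF. It gave the same order of arrays with smaller differences. The induced arrays were 1.25-fold apart on it, and iNSC_14F was at least 1.99-fold higher than NSC. The size of the Anxa2 difference between the induced arrays therefore rests on 1 probe set. The remaining Anxa2 probe set was below the floor on every array.

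S100a10, the gene of the Anxa2 partner, had signals of 8193 in iNSC_14F, 7339.6 in iNSC_13F, 4183 in NSC and 19564 in MEF. The order of the arrays was that of Anxa2. The differences were smaller, at 2.39-fold, 2.67-fold and 4.68-fold lower than MEF in iNSC_14F, iNSC_13F and NSC, where Anxa2 was 7.30-fold, 27.8-fold and 47.4-fold lower. S100a10 was 1.12-fold higher in iNSC_14F than in iNSC_13F.

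Anxa3, Anxa4, Anxa5 and Anxa8 encode annexins with short tails. Anxa5, the protein used to stain dying cells because it binds phosphatidylserine, had signals of 1411 in iNSC_14F, 879.7 in iNSC_13F, 853 in NSC and 23355 in MEF. The MEF array was far above the other 3, which lay within 1.66-fold of one another. Anxa5 was 16.5-fold, 26.5-fold and 27.4-fold lower than MEF in iNSC_14F, iNSC_13F and NSC.

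Anxa3, known as a protein of neutrophil granules, had signals of 66.8 in iNSC_14F, 67.0 in iNSC_13F, 116 in NSC and 11160.2 in MEF. Both induced arrays were below the floor and NSC was barely above it. Anxa3 was at least 107-fold lower than MEF on each induced array and 95.9-fold lower in NSC.

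Anxa4, an annexin studied mainly in epithelia, had signals of 119 in iNSC_14F, 49.2 in iNSC_13F, 111 in NSC and 3172 in MEF. All arrays but MEF were near or below the floor. Relative to MEF the gene was lower by 26.6-fold in iNSC_14F, by at least 30.5-fold in iNSC_13F and by 28.6-fold in NSC. Its 3 probe sets were all highest on MEF.

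Anxa8, first described as an inhibitor of blood clotting, had signals of 3.04 in iNSC_14F, 21.2 in iNSC_13F, 2.34 in NSC and 1165 in MEF. Only MEF was above the floor, so the gene was at least 11.2-fold lower on each of the other arrays, and these have no order among themselves. Its other probe set had a MEF signal of 435 and was below the floor elsewhere.

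Anxa6 differs from the rest of the family in carrying the core in duplicate. Its signals were 468 in iNSC_14F, 1022 in iNSC_13F, 433 in NSC and 1421 in MEF. The iNSC_13F array was within the yardstick of MEF, and iNSC_14F within that of NSC. Anxa6 was 3.04-fold lower in iNSC_14F and 3.28-fold lower in NSC than in MEF, but 1.39-fold lower in iNSC_13F, a direction that turned (0.03 on the log2 scale) with the median of its 4 probe sets. Against NSC it was 2.36-fold higher in iNSC_13F, just past the yardstick, and 1.08-fold higher in iNSC_14F. The yardstick comes from the induced arrays and not from a pair with NSC. Between iNSC_13F and NSC at least 879 of 11180 genes had a larger rise than Anxa6, so its rise was not unusual there. With scaling to the hybridization controls the difference between iNSC_13F and NSC was 0.165 (log2) in place of 1.24, which is within the yardstick.

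All 4 probe sets of Anxa6 gave the order iNSC_13F, iNSC_14F and NSC from high to low. The log2 difference between iNSC_13F and NSC ran from 0.58 to 1.61 over them, and that between iNSC_14F and iNSC_13F from -1.13 to -0.27. One of the 4 was the only annexin probe set above the floor that was not highest on MEF, with signals of 189 in iNSC_14F, 290.4 in iNSC_13F, 86.0 in NSC and 221 in MEF. In all, 17 of the 19 probe sets were above the floor on at least 1 array, and 16 of these 17 were highest on MEF.

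**Figure D2:**
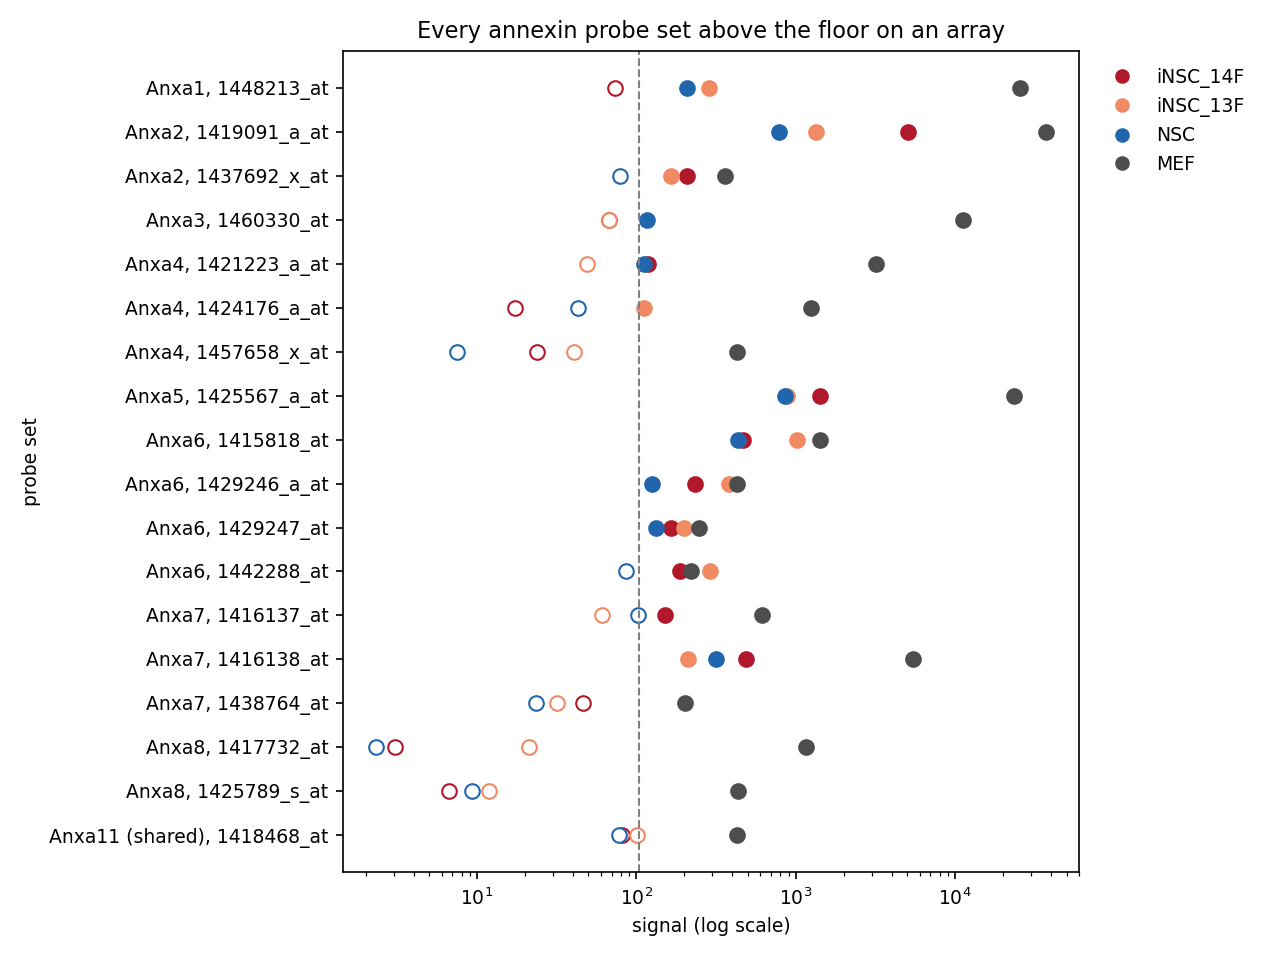
Signal (log axis) of each annexin probe set above the floor on at least 1 array, with the shared one of Anxa11 in the bottom row, 1 row a probe set, with the 4 arrays as colours, open circles at or below the floor and the floor as a dashed line. The dark MEF points lie furthest right in all rows except the lowest Anxa6 row, where iNSC_13F at 290.4 lies above MEF at 221.

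Anxa7 and Anxa11 encode annexins with long tails, which in both bind small calcium sensors of the penta-EF-hand type. Anxa7, known as synexin for its part in granule fusion, had signals of 484 in iNSC_14F, 212 in iNSC_13F, 314 in NSC and 5422 in MEF. The MEF array was highest and the NSC array lay between the induced arrays. Anxa7 was 11.2-fold, 25.6-fold and 17.3-fold lower than MEF in iNSC_14F, iNSC_13F and NSC. It was 2.28-fold higher in iNSC_14F than in iNSC_13F, close to the yardstick but within it. A further probe set of Anxa7 was also higher in iNSC_14F, at 151, than in iNSC_13F, at 60.9, a signal below the floor.

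No level is given for Anxa11, since its only probe set is also annotated to Gm2260 and Gm2274, both transcribed pseudogenes. The signals of this shared probe set were 81.1 in iNSC_14F, 100.4 in iNSC_13F, 77.3 in NSC and 430.0 in MEF. It was above the floor on MEF only, and at least 4.14-fold lower on each of the other arrays. It enters no count here. The remaining annexin genes of the table, Anxa9, Anxa10 and Anxa13, had 4 probe sets, all below the floor on every array.

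The induced arrays were then compared with NSC and with each other, to ask where the annexins of the induced cells differ from those of neural stem cells. Of 7 measured annexins, 1 was at least 4-fold higher in iNSC_14F than in NSC, namely Anxa2, where 1.42% of 10812 genes were, and 0 were at least 4-fold lower, where 9.40% were. In iNSC_13F 0 of 7 were 4-fold higher and 0 lower than in NSC, where 1.07% and 11.3% of 11180 genes were. At 2-fold, 1 annexin, Anxa2, was higher and 0 lower in iNSC_14F, beside 16.9% and 19.3% of genes, and 1, Anxa6, was higher and 0 lower in iNSC_13F, beside 14.8% and 20.8%. The Anxa6 difference was under 2-fold with scaling to the hybridization controls, at 0.165 (log2). The medians were 0.11 and 0.04 (log2), against 0.33 and 0.30 over all measured genes. With scaling to the hybridization controls, all 4 medians turned negative, at -0.75 and -0.96 for the annexins and -0.45 and -0.65 for all genes. The direction of small differences from NSC is therefore not settled, and Anxa4, Anxa5, Anxa6 and Anxa7 in iNSC_14F and Anxa1, Anxa2 and Anxa5 in iNSC_13F changed sign under that scaling.

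Between the induced arrays, 0 of 6 measured annexins were at least 4-fold apart, where 0.500% of 10809 genes were 4-fold higher and 0.342% 4-fold lower in iNSC_14F. At 2-fold, Anxa2 and Anxa7 were higher in iNSC_14F, where 6.03% of all measured genes were, and Anxa1 and Anxa6 lower, where 2.97% were. Anxa6 and Anxa7 were within the yardstick, and Anxa1 and Anxa2 beyond it. These 4 kept their direction under each alternative in which they were measured, but not always 2-fold. With the median over probe sets the log2 differences were 0.32 for Anxa2, 0.54 for Anxa7, -0.73 for Anxa1 and -0.67 for Anxa6. The medians of Anxa1 and Anxa2 take in a probe set below the floor on every array, which makes their differences smaller. With scaling to the hybridization controls the difference of Anxa6 was -0.92. Anxa2 was 4.42-fold higher in iNSC_14F with scaling to the hybridization controls.

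**Figure D3:**
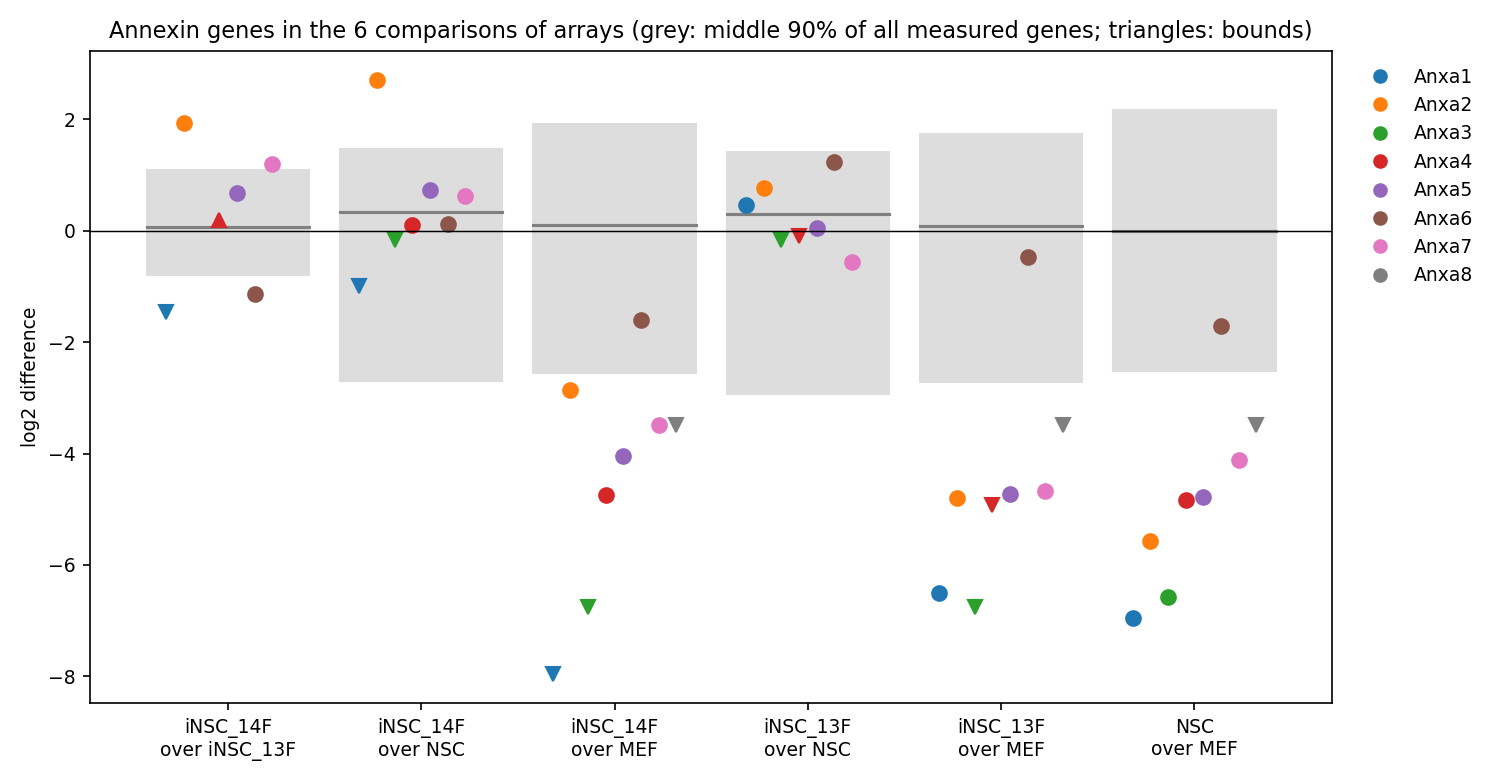
Log2 difference of each annexin gene (colours) in the 6 comparisons of arrays, with the middle 90% of all measured genes as grey boxes, their median as a grey line, and triangles for bounds. Against MEF 7 of 8 annexins lie below the grey boxes, and the Anxa2 point in iNSC_14F over NSC, at 2.70, lies above its box. In iNSC_14F over iNSC_13F, Anxa2 at 1.93 and Anxa7 at 1.19 lie above the box, and Anxa1 at -1.45 and Anxa6 at -1.13 below it. Anxa6 and Anxa7 are still within the yardstick, which is wider than this box.

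Genes with the most similar profiles were then sought for the 4 annexins with the largest range over the arrays. The measure was the distance between log2 profiles over the 4 arrays, with lower signals set to the floor and each profile centred on its mean. Only genes above the floor on at least as many arrays were searched. For Anxa1 the nearest of 9183 genes were Serpinf1 (distance 0.91), Col6a3 (1.19) and Myl9 (1.28), and for Anxa3 the nearest of 10260 genes were Nupr1 (0.15), Cxcl12 (0.26) and Myl9 (0.29). For Anxa2 the nearest of 7961 genes were Zfhx3 (0.68), Rcn3 (0.78) and Kdelr3 (0.95), and for Anxa4 the nearest of 9183 were Serpinb6a (0.16), Lurap1l (0.30) and Tes (0.39). Zfhx3 had signals of 428 in iNSC_14F, 140.4 in iNSC_13F, 126 in NSC and 4605 in MEF, and like Anxa2 it lay higher in iNSC_14F than in the other cells grown in N2 medium. Among the annexins Anxa5 ranked sixth in nearness to Anxa4, at a distance of 0.54, and of the annexins that entered these searches Anxa6 was the furthest from Anxa1, Anxa2, Anxa3 and Anxa4. Differences below the floor do not count in these distances. In iNSC_14F, for example, Nupr1 at 14.1 and Anxa3 at 66.8 were taken as equal. The distances rest on 4 arrays and are a description.

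Gene lists around the annexins were counted with the same rule. The counts stand beside the shares of all measured genes, which were at least 4-fold lower than MEF for 8.03% in iNSC_14F, 9.27% in iNSC_13F and 7.21% in NSC, and at least 4-fold higher for 4.49%, 3.66% and 6.09%. The medians over all measured genes were 0.10, 0.09 and -0.01 (log2). Of 13 S100 genes, small calcium binding proteins of which several are annexin partners, 7 were measured against MEF. In iNSC_14F 4 of 7 were at least 4-fold lower than MEF and 1 higher, in iNSC_13F 4 and 1, and in NSC 5 and 0, with medians of -2.14, -2.14 and -2.33 (log2). S100a6 was 138-fold, 232-fold and at least 315-fold lower than MEF in iNSC_14F, iNSC_13F and NSC. S100a4 was 65.1-fold, 141-fold and at least 166-fold lower. In the other direction S100b, a marker of glial cells, was at least 4.63-fold, 7.05-fold and 3.67-fold higher than MEF. S100a11, a partner of annexin A1, has a probe set shared with other genes and gets no level.

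The plasminogen list also went both ways. Its measured members were 4, 5 and 4 of 11 in iNSC_14F, iNSC_13F and NSC against MEF, where 2 on each array were at least 4-fold lower, beside 8.03%, 9.27% and 7.21% of all genes, and 0, 1 and 0 at least 4-fold higher, beside 4.49%, 3.66% and 6.09%. Plaur, the urokinase receptor gene, had signals of 190.0 in iNSC_14F, 278 in iNSC_13F, 123 in NSC and 1929 in MEF. Plau, the urokinase gene, was at least 11.7-fold lower than MEF on each of the 3 arrays. Plat, the gene of the tissue activator that the Anxa2 complex binds, had signals of 8367 in iNSC_14F, 14741 in iNSC_13F, 7209 in NSC and 3189 in MEF. It was thus lowest on the array where Anxa2 was highest, and 2.62-fold, 4.62-fold and 2.26-fold higher than MEF on the others.

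Of 14 measured genes of membrane repair and membrane scaffolds, 9 were at least 4-fold lower than MEF in iNSC_14F, 8 in iNSC_13F and 9 in NSC, and 0 were higher, where 8.03%, 9.27% and 7.21% of all genes were lower. The medians of the list were -2.48, -2.50 and -3.13, against 0.10, 0.09 and -0.01 over all genes. Ahnak, a giant scaffold protein that binds the Anxa2 complex, had signals of 7.17 in iNSC_14F, 7.28 in iNSC_13F, 15.7 in NSC and 6379 in MEF, so it was at least 61.4-fold lower on each. Cav1, the caveolin gene, was 49.3-fold, 18.4-fold and 51.6-fold lower. Of the penta-EF-hand list 0 were 4-fold apart from MEF, with 3 members measured in iNSC_14F, 3 in iNSC_13F and 4 in NSC. With so few members and the shares of all genes above, nothing is read from this count. Pdcd6, the gene of the calcium sensor ALG-2, which binds Anxa7 and Anxa11, had signals of 4140.4 in iNSC_14F, 4287 in iNSC_13F, 4139 in NSC and 4364 in MEF. The copines, a further family that binds phospholipids in the presence of calcium, had medians of -0.28, -0.22 and -0.62 against MEF. At least 4-fold lower were 0 of 6, 1 of 5 and 0 of 5 measured members, beside 8.03%, 9.27% and 7.21% of all genes. None was 4-fold higher, beside 4.49%, 3.66% and 6.09%. With so few members, nothing is read from these counts either.

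**Figure D4:**
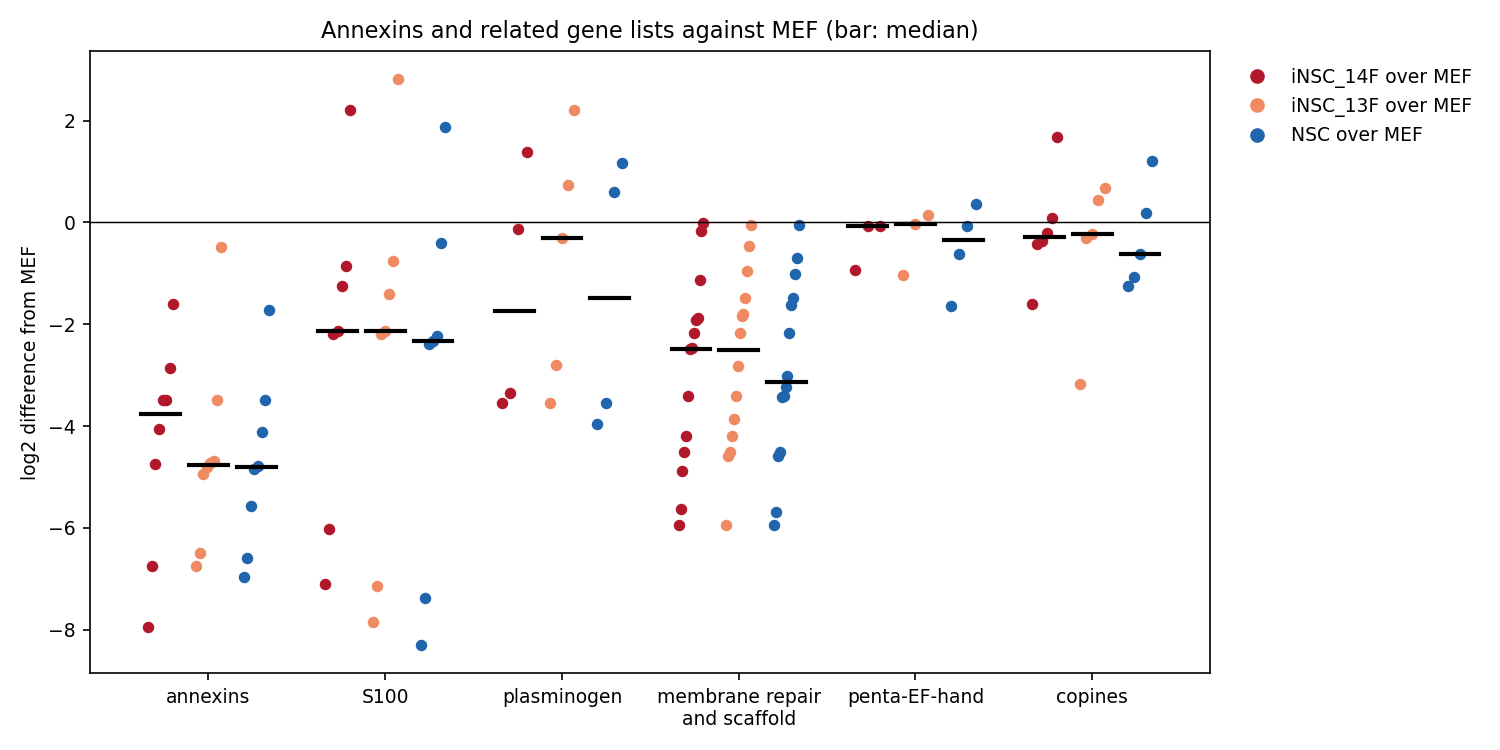
Log2 difference from MEF of each measured member of the annexins and 5 gene lists, with iNSC_14F, iNSC_13F and NSC as colours, the list median as a bar and bounds plotted at their value. The annexin medians lie at -3.77, -4.76 and -4.81 and the copine medians at -0.28, -0.22 and -0.62.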

How the data were processed

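Gene expression was measured on 1 Affymetrix array for each of 4 cell populations, grouped by their cell type labels. The deposited values are linear intensities, each the signal of a probe set. MAS5, named in the submitters' processing notes, summarises each array separately, with no version or settings stated. The deposited signals had a 2% trimmed mean of 500 on each array, so they were not scaled again.

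Of 45101 probe sets, 64 were controls, 34945 had 1 gene in the platform annotation, 932 had several and 9160 had none. Neither of the last 2 kinds gave a level for a gene, and of them only the shared probe set of Anxa11 is shown. Symbols were updated by gene ID (34741 matched) through a RefSeq table. A gene took its brightest probe set by mean floored log2 signal. The floor was the 95th percentile of 86 odorant, vomeronasal and taste receptor probe sets, on the array where it was highest, and lower signals were set to it before log2. This percentile was 70.9 on iNSC_14F, 99.4 on iNSC_13F, 37.1 on NSC and 103.9 on MEF. Only genes that exceeded the floor on either array of a pair were counted as measured. The number of arrays limits the precision.

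All 6 pairs of arrays were compared by a rule of size, at least 4-fold, with 2-fold counts beside it. The calculation was checked on simulated data. The members, gene lists and rules were chosen with earlier results of these data known. The genes named are the annexins, the 3 nearest profiles of 4 of them among established gene symbols, and up to 4 members of each list. The alternatives changed the normalization (quantiles, or 9 hybridization control probe sets), the floor (75th or 99th percentile, or a pseudocount of 16 in its place), the probe sets (their median per gene, or none with a suffix) and the genes (those above the floor on both arrays). Python 3.11.15, numpy 2.4.6 and pandas 2.3.3 were used.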

Additional observations from a re-analysis of the deposited data

Results flagged for a closer look

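For 3 annexins the induced arrays lay on opposite sides of the NSC array, which marks them for a closer look. The log2 difference of Anxa1 from NSC was -0.99 in iNSC_14F, a bound, and 0.46 in iNSC_13F. That of Anxa7 was 0.63 in iNSC_14F and -0.57 in iNSC_13F. That of Anxa4 was 0.10 in iNSC_14F and -0.09 in iNSC_13F, where the iNSC_13F value was taken at the floor. A further probe set of Anxa4 gave the reverse order, with 17.3 in iNSC_14F, 43.2 in NSC and 112 in iNSC_13F. Of these signals only that of iNSC_13F was above the floor. Each group has 1 array, so whether the induced populations differ in this was not tested. The pattern is lost with scaling to the hybridization controls, which puts both induced arrays below NSC for all 3 genes. The differences in iNSC_14F and iNSC_13F are then -1.86 and -0.61 for Anxa1, -0.24 and -1.64 for Anxa7, and -0.76 and -0.96 for Anxa4.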

How the results depend on the processing

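Against MEF, 6 or 7 annexins were at least 4-fold lower in each comparison under the alternatives other than those named next. Without suffixed probe sets the count was 4 of 5 measured in each of the 3 comparisons, since Anxa4 and Anxa5 have no other probe set and that of Anxa2 is below the floor. Requiring a signal above the floor on both arrays gave 4 of 5 for iNSC_14F and 4 of 5 for iNSC_13F, since fewer genes are counted. Against NSC, the count of 1 for iNSC_14F was 0 with scaling to hybridization controls, 0 with the median over probe sets and 0 without suffixed probe sets. Between the induced arrays the count of 0 was 1 with scaling to hybridization controls. That scaling gave a median log2 difference over all genes of 0.78 between NSC and MEF, in place of -0.01, and 78.6% of 4-fold calls higher in NSC, in place of 45.8%. The share of calls that were higher was 2.24% in place of 13.2% for iNSC_14F over NSC, and 76.8% in place of 59.3% for iNSC_14F over iNSC_13F. The annexin median between NSC and MEF was -3.94 under it, with 7 of 8 at least 4-fold lower. Of 312 values of single annexins under the alternatives, 243 moved by less than 0.585 (log2), the SD of all genes' differences between the induced arrays. The other 69 moved by more, and 0 that had been at least 4-fold apart changed sign. Part of the 243 could not move. Signals well above the floor stay the same when it changes, and genes whose brightest probe set has no suffix keep that probe set. Requiring both arrays above the floor only drops genes. The 243 are therefore no measure of stability. No paired analysis was possible because each group has 1 array. Signals near the floor limit Anxa1, Anxa3, Anxa4 and Anxa8 to bounds on some arrays.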

Other observations

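Some genes of the lists around the annexins lay well away from NSC on an induced array. Of all measured genes, 9.40% in iNSC_14F and 11.3% in iNSC_13F were at least 4-fold lower than in NSC. At least 4-fold higher were 1.42% and 1.07%. Pla2g4a, the gene of the cytosolic phospholipase A2 that annexin A1 is known to restrain, had signals of 37.6 in iNSC_14F, 53.7 in iNSC_13F, 950 in NSC and 2312 in MEF. It was at least 9.14-fold lower on both induced arrays than in NSC and at least 22.3-fold lower than in MEF. The copine gene Cpne3 had signals of 602 in iNSC_14F, 202 in iNSC_13F, 2090 in NSC and 1833 in MEF, so that it was 10.3-fold lower in iNSC_13F than in NSC. Cavin1, a coat protein of caveolae, had signals of 1253 in iNSC_14F, 3654 in iNSC_13F, 752 in NSC and 7056 in MEF. It was 4.86-fold higher in iNSC_13F than in NSC. Cav1 was 2.81-fold higher, with signals of 214 in iNSC_14F, 575 in iNSC_13F, 205 in NSC and 10563 in MEF. Their relatives Cav2 and Cavin3 went the other way, 4.38-fold and 1.80-fold lower in iNSC_13F than in NSC. Between these arrays 14.8% of 11180 measured genes were at least 2-fold higher and 20.8% at least 2-fold lower. Folds with scaling to the hybridization controls are not given for these list genes. These genes were picked out after their values were seen, and no difference has a replicate check.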
